A study of Homo sapiens with 6 samples.

Results

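The genes that start blood coagulation and those that activate plasminogen were examined in T24, a cell line that derives from a human carcinoma of the bladder. They were chosen by name from the deposited gene table, with earlier results of these data known, and comprise 9 of its 20030 rows. F3, TFPI, TFPI2, THBD and F2RL1 belong to the coagulation side, and PLAU, PLAUR, PLAT and SERPINB2 to the plasminogen side. The series holds 6 RNA-sequencing libraries, 3 labelled NC and 3 labelled sh-circRIMS1, and all of them are T24 cells with no other allele or agent named in the labels. The sh-circRIMS1 libraries are from cells in which circRIMS1, a circular RNA of the RIMS1 gene, was targeted. The labels do not say what the NC construct was or whether replicates were separate cultures.

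Coagulation starts when tissue factor, a membrane protein, binds factor VIIa and the complex activates factor X. Plasminogen is a circulating proenzyme that urokinase or tissue-type plasminogen activator cleaves to plasmin, the protease that dissolves fibrin and can act on extracellular matrix. Carcinoma cells are known to carry tissue factor, urokinase and the urokinase receptor on their surface, and serpins and Kunitz-type proteins hold these proteases in check. Protease-activated receptors turn the activity of such proteases into signals inside the cell.

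In the sh-circRIMS1 libraries 5 of the 9 genes were higher, 0 were lower and 4 did not pass the test. F3, PLAU, PLAUR, TFPI2 and F2RL1 were the 5, with mean levels between 1.62 and 10.5 times those of NC. The remaining 4, TFPI, THBD, PLAT and SERPINB2, were each highest in sh-circRIMS1 replicate 2 and between 0.887 and 1.38 times the NC mean in the other knockdown libraries. Levels are FPKM (sequenced fragments scaled to transcript length and to library depth), and the test was limma on log2(FPKM + 0.5) over 10408 genes with a mean of at least 1 FPKM, adjusted over all of them at 0.05. Changes are sh-circRIMS1 minus NC on that log2 scale, and low genes change by more than it shows. Of all tested genes 25.0% were called higher and 12.7% lower by the same rule, 2598 and 1322 genes. F2RL1, part of each count of the 9 genes, passed the filter only through its level in sh-circRIMS1. It could thus enter the test only by being high there. Under median-of-ratios scaling these counts were 2074 and 1930, and under quantile normalization 1588 and 2085. Groups did not overlap in 8 of the 9 genes, with the knockdown above NC in each, against 35.5% of tested genes with the knockdown above NC. For those 8 genes an exact permutation test (two-sided, 3 against 3 libraries) gave p = 0.1, the smallest it can give, and for PLAT it gave p = 1.

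**Figure D1:**
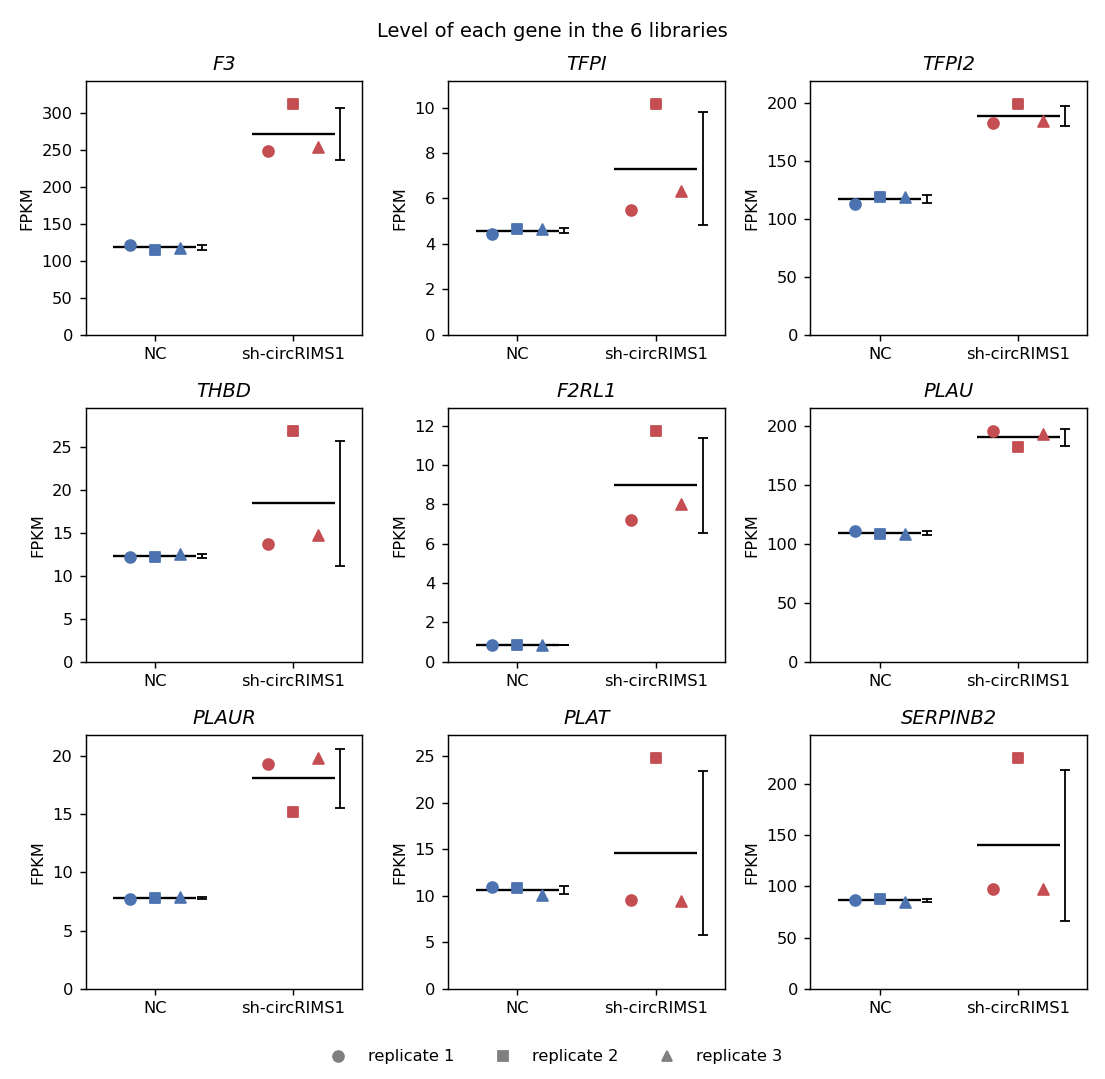
FPKM of the 9 genes in each library, on linear axes from 0, with NC in blue and sh-circRIMS1 in red, replicates 1, 2 and 3 as circle, square and triangle, the group mean as a line and the SD (n = 3) as the bar beside it. F3, TFPI2, F2RL1, PLAU and PLAUR separate the groups clearly, while the means of TFPI, THBD, PLAT and SERPINB2 are raised by the square of sh-circRIMS1 replicate 2.

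The libraries had FPKM sums between 268143 and 284682, and absolute depth is unknown. Steps between the low FPKM values put the depth of the other libraries at 1.01 to 1.17 times that of NC replicate 1. These are estimates, since only 28.3% to 40.2% of the ratios lay within 2% of the chosen step. Across tested genes, which are not independent, Pearson's r between libraries of the same group was 0.997 wherever sh-circRIMS1 replicate 2 was not involved. For that library it was 0.974 with replicate 1 and 0.975 with replicate 3, so results below are given with and without that library where they depend on it. RIMS1 measured 0.426, 0.384 and 0.498 FPKM in NC and 0.222, 0.240 and 0.308 FPKM in sh-circRIMS1, but a value per gene cannot tell the circular from the linear RNA, so the knockdown was not measured. In bulk libraries fewer cells of a kind and less RNA per cell cannot be told apart.

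F3 encodes tissue factor, the initiator itself. Its level was 122, 114 and 118 FPKM in NC replicates 1, 2 and 3 and 248, 312 and 253 FPKM in sh-circRIMS1 replicates 1, 2 and 3. Every knockdown library lay above every NC library, and replicate 2 was the highest. The means were 118 ± 3.64 and 271 ± 35.5 FPKM (SD, n = 3 each), a ratio of 2.30. The log2 change (with standard error, SE) was 1.19 (SE 0.09, 95% interval 0.97 to 1.41, limma adjusted p = 0.000296), and without replicate 2 it was 1.08. F3 had the highest mean of the 9 transcripts in sh-circRIMS1, and in NC it was about level with TFPI2, above 96.6% of tested genes.

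The promoter of F3 is shown because it holds matches to several motifs that textbooks describe for this gene. The 4 other promoters shown are those that also held a match to a motif searched. The windows of TFPI and PLAU held none of these motifs and are not shown, although PLAU also rose in every knockdown library. Promoters of 7 of the 9 genes were in the RefSeq table (GRCh38.p14); THBD and PLAT were not matched, and PLAU had more than 1 window. Each sequence below is the 250 bases before the annotated start, written 5′ to 3′ on the gene's strand, with motif matches in capitals. PLAUR and TFPI2 rose in every knockdown library, SERPINB2 was high mainly in replicate 2, and F2RL1 had the largest change.
F3 (chr1:94541760-94542009, minus strand): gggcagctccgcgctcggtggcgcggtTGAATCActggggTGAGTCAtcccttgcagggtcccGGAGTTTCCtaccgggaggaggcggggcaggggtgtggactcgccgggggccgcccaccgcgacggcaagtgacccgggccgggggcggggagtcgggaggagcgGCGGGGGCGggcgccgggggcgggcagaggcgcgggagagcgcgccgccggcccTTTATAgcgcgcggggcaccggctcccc
PLAUR (chr19:43670170-43670419, minus strand): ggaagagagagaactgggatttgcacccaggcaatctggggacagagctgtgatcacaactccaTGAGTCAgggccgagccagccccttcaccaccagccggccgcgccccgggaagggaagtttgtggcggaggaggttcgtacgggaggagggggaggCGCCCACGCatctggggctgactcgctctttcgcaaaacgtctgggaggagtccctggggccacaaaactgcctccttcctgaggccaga
TFPI2 (chr7:93890754-93891003, minus strand): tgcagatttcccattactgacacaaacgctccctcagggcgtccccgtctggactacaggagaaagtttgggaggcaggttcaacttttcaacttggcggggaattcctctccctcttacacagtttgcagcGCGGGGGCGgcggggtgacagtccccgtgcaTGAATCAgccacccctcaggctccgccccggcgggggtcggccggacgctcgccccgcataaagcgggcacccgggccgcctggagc
SERPINB2 (chr18:63887455-63887704, plus strand): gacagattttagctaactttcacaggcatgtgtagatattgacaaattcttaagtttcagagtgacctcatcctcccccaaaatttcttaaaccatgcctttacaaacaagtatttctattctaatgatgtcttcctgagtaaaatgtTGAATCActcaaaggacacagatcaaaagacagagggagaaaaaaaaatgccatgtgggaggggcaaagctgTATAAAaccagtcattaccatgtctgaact
F2RL1 (chr5:76818780-76819029, plus strand): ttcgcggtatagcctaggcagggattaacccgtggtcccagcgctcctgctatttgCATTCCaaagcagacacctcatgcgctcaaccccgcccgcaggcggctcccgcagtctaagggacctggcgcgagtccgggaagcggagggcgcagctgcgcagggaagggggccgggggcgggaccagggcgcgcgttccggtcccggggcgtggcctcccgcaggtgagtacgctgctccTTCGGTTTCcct

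The motifs searched, on both strands, were TGANTCA for AP-1, GGANTTTCC for NF-kB, GCGNGGGCG for EGR1, GGAATG for TEAD, GAAANNGAA for a shortened interferon-stimulated response element and TATAAA for the TATA box, and no match overlapped another in these windows. AP-1 is the FOS and JUN family of transcription factors. The AP-1 letters stood in 4 of the 7 promoters, those of F3, PLAUR, TFPI2 and SERPINB2, and in 6.57% of all 35116 promoter windows of the table. F3 held them at 223 and 210 bases before the start, and PLAUR at 186, SERPINB2 at 102 and TFPI2 at 87 bases before it. F3 alone of the 7 held the NF-kB letters, 187 bases before the start, and 1.45% of all windows hold them. The EGR1 letters were in F3, PLAUR and TFPI2 and in 8.41% of all windows. TATA letters stood 28 bases before the start of F3, on the opposite strand, and 30 bases before that of SERPINB2, against 10.7% of all windows. F2RL1 held the TEAD letters 194 bases before its start, which 11.9% of all windows hold, and the letters of the interferon element 12 bases before it. The latter were in 6.88% of all windows and in no other of the 7 promoters. The longer form of this element, with a further A at its end, was in 0 of the 7 promoters and in 3.02% of all windows. These are matches of letters only, and binding was not measured.

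Of the 3 genes for inhibitors on the coagulation side, TFPI2 was called higher, and TFPI and THBD were not. TFPI2 encodes a Kunitz-type inhibitor of plasmin, trypsin and related proteases found in the extracellular matrix. Its level was 113, 119 and 119 FPKM in NC and 182, 199 and 185 FPKM in sh-circRIMS1. The groups did not overlap, and the knockdown libraries lay close together. The mean was 117 ± 3.55 FPKM in NC and 189 ± 8.91 FPKM in sh-circRIMS1 (SD, n = 3 each). It rose by 0.69 on the log2 scale (SE 0.06, 95% interval 0.56 to 0.82, limma adjusted p = 0.000312).

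TFPI, tissue factor pathway inhibitor, is the Kunitz-type protein that blocks the complex of tissue factor and factor VIIa in a factor Xa-dependent way. It measured 4.45, 4.64 and 4.66 FPKM in NC and 5.47, 10.2 and 6.32 FPKM in sh-circRIMS1. All knockdown libraries were above NC, but replicate 2 stood at 1.72 times the mean of replicates 1 and 3. The log2 change was 0.58 (SE 0.20, 95% interval 0.09 to 1.06, limma adjusted p = 0.0630) and did not pass the threshold. Without replicate 2 it was smaller, 0.33, and passed (limma adjusted p = 0.00287).

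THBD encodes thrombomodulin, a membrane protein that binds thrombin and directs it towards activation of the anticoagulant protein C. It measured 12.2, 12.2 and 12.5 FPKM in NC and 13.7, 26.9 and 14.8 FPKM in sh-circRIMS1. Replicate 2 was 2.18 times the NC mean, and replicates 1 and 3 were 1.11 and 1.20 times that mean. The log2 change of 0.50 had 95% limits of -0.06 and 1.06 (limma adjusted p = 0.137), and without replicate 2 it was 0.20 (limma adjusted p = 0.00507).

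F2RL1 encodes protease-activated receptor 2, a receptor coupled to G proteins that trypsin-like proteases and the complex of tissue factor and factor VIIa can cleave. It measured 0.865, 0.840 and 0.847 FPKM in NC and 7.18, 11.7 and 8.004 FPKM in sh-circRIMS1. Each knockdown library was at least 8.44 times the NC mean. The change was the largest of the 9 genes, 2.78 on the log2 scale (SE 0.17, 95% interval 2.38 to 3.18, limma adjusted p = 0.000136). The ratio of mean FPKM was 10.5. F2RL1 was also the least abundant of the 9 in NC, and it passed the filter of 1 FPKM only through its level in sh-circRIMS1, so it could enter the test only by being high there.

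On the plasminogen side the urokinase gene and that of its receptor rose together. PLAU, urokinase, is the activator that cells use mainly at their surface. Its level was 111, 108 and 108 FPKM in NC and 195, 182 and 193 FPKM in sh-circRIMS1. Knockdown and NC libraries were well separated, and replicate 2 was the lowest of the knockdown libraries. The log2 change was 0.80 (SE 0.05, 95% interval 0.68 to 0.92, limma adjusted p = 0.000145). In the RefSeq annotation PLAU overlaps C10orf55, which measured 0.719 ± 0.0444 FPKM in NC and 1.61 ± 0.236 FPKM in sh-circRIMS1 (SD, n = 3 each). The sources used here do not state strand-specific counting, so reads of these overlapping genes may not be told apart.

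PLAUR encodes the urokinase receptor, a protein anchored in the membrane by a lipid that gathers urokinase on the cell. It measured 7.73, 7.78 and 7.88 FPKM in NC and 19.3, 15.2 and 19.8 FPKM in sh-circRIMS1. Replicate 2 was again the lowest knockdown library, at 1.94 times the NC mean, against 2.48 and 2.54 times in replicates 1 and 3. The log2 change was 1.15 (SE 0.10, 95% interval 0.91 to 1.40, limma adjusted p = 0.00047), and without replicate 2 it was 1.27.

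PLAT, tissue-type plasminogen activator, is the fibrin-bound activator best known from endothelium. It measured 10.9, 10.9 and 10.1 FPKM in NC and 9.54, 24.8 and 9.43 FPKM in sh-circRIMS1. This was the single gene of the 9 whose groups overlapped, with replicates 1 and 3 below all NC libraries and replicate 2 far above them. The log2 change was 0.29, with 95% limits of -0.54 and 1.12 (limma adjusted p = 0.537). Without replicate 2 its sign turned, to -0.16 (limma adjusted p = 0.0247).

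SERPINB2 encodes plasminogen activator inhibitor 2, a serpin that inhibits urokinase and stays largely inside the cell. It measured 86.5, 87.8 and 85.0 FPKM in NC and 97.4, 225 and 97.6 FPKM in sh-circRIMS1. Replicate 2 was 2.31 times the mean of replicates 1 and 3, and each of those was 1.13 times the NC mean. The log2 change of 0.57 had 95% limits of -0.17 and 1.31 (limma adjusted p = 0.186), and without replicate 2 it was 0.17 (limma adjusted p = 0.000495).

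**Figure D2:**
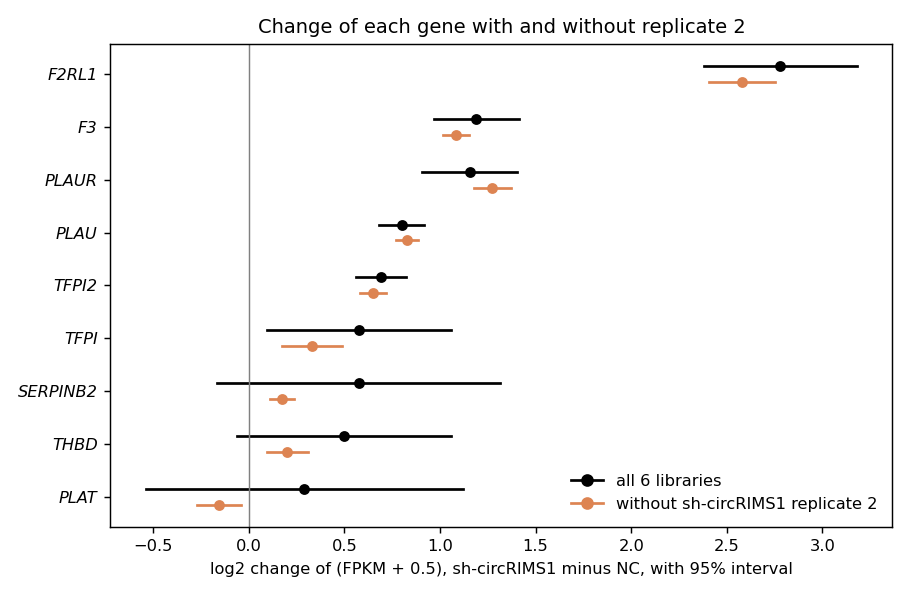
Log2 change of each of the 9 genes, sh-circRIMS1 minus NC, as a point with its 95% interval from limma, for all 6 libraries (black) and without sh-circRIMS1 replicate 2 (orange). The intervals of F2RL1, F3, PLAUR, PLAU and TFPI2 lie above 0 in both fits, the estimates of TFPI, SERPINB2 and THBD shrink without that library, and PLAT moves from 0.29 to -0.16.

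The 9 genes thus differed in how far sh-circRIMS1 replicate 2 lay from replicates 1 and 3. PLAT, SERPINB2, THBD, TFPI and F2RL1 were higher in replicate 2 by 1.34, 1.20, 0.89, 0.74 and 0.60 on the log2 scale. These 5 of 9 passed a gap of 0.5, which 7.90% of tested genes did, and 6.11% lay as far below. F3 and TFPI2 were higher there by 0.31 and 0.12, and PLAU and PLAUR lower, at -0.09 and -0.36. With array weights, which let limma down-weight an aberrant library, 8 of the 9 were higher and 0 lower, against 38.3% and 23.3% of all tested genes. Without replicate 2, 8 of the 9 genes were called higher and 1, PLAT, lower, when 36.8% of 10340 tested genes were called higher and 23.9% lower. The count within the 9 therefore rose along with the count over all genes. What set replicate 2 apart was not tested.

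**Figure D3:**
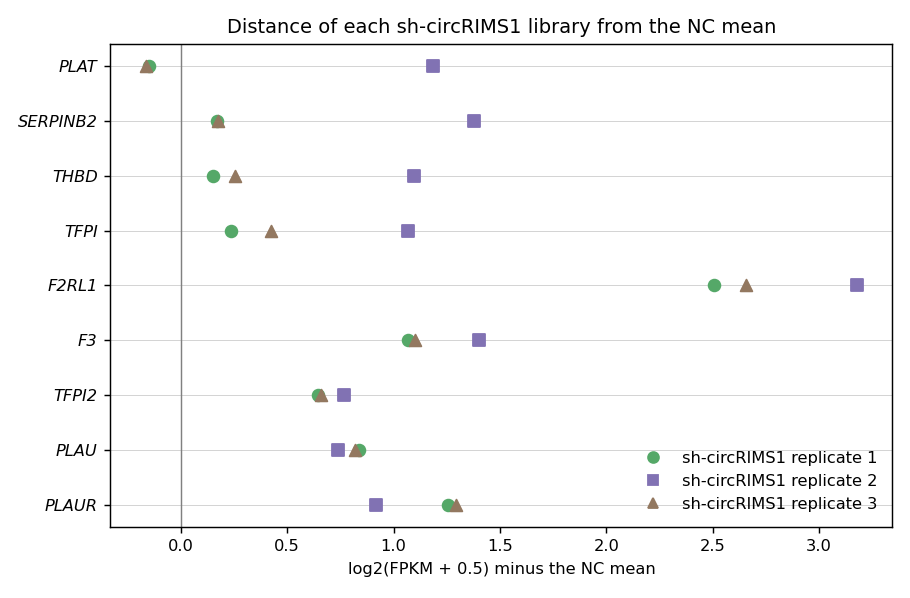
Difference of each sh-circRIMS1 library from the NC mean on the log2(FPKM + 0.5) scale for the 9 genes, ordered by how far replicate 2 (square) lies above replicates 1 (circle) and 3 (triangle). Replicates 1 and 3 lie close together for each gene, and replicate 2 runs from 1.34 above them for PLAT to 0.36 below them for PLAUR.

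FPKM is per length, so levels can be set in order. In NC the order was F3, TFPI2, PLAU, SERPINB2, THBD, PLAT, PLAUR, TFPI and F2RL1. The first pair, F3 and TFPI2, overlapped between libraries, and no other neighbours in the order did. F3, TFPI2, PLAU and SERPINB2 were abundant, with means from 86.4 to 118 FPKM, while THBD at 12.3, PLAT at 10.6, PLAUR at 7.80 and TFPI at 4.58 FPKM lay lower, above 62.9%, 58.4%, 48.5% and 32.5% of tested genes.

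Ratios within a library compare an initiator with its inhibitor or a ligand with its receptor. F3 stood at 27.4, 24.7 and 25.3 times the FPKM of TFPI in NC and at 45.3, 30.7 and 40.1 times in sh-circRIMS1. The ratio was higher in every knockdown library, by 0.61 on the log2 scale on average (exact two-sided permutation p = 0.1, the smallest that 3 against 3 libraries can give). PLAU stood at 14.3, 13.9 and 13.7 times PLAUR in NC and at 10.1, 12.02 and 9.72 times in sh-circRIMS1, a log2 difference of -0.36 (exact permutation p = 0.1). This ratio was lower in every knockdown library. PLAU stood at 10.1, 9.92 and 10.7 times PLAT in NC and at 20.5, 7.34 and 20.4 times in sh-circRIMS1. Here replicate 2 went the other way from replicates 1 and 3, and the difference was 0.51 (exact permutation p = 0.4), and it was 0.99 without replicate 2, 0.27 without replicate 1 and 0.27 without replicate 3 of sh-circRIMS1. None of the 3 tests could have passed 0.05 with this number of libraries.

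**Figure D4:**
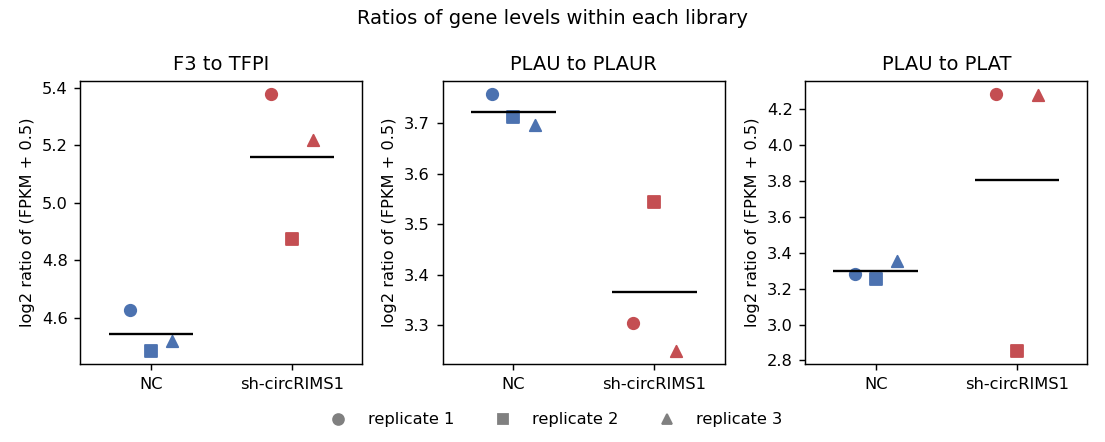
Log2 ratio of (FPKM + 0.5) of F3 to TFPI, PLAU to PLAUR and PLAU to PLAT in each library, with replicates 1, 2 and 3 as circle, square and triangle and the group mean as a line; the vertical axes do not start at 0. The groups separate for the first pair of ratios, and for PLAU to PLAT replicate 2 of sh-circRIMS1 lies below NC while replicates 1 and 3 lie above it.

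The surrounding genes were read from 6 hand-made lists and 1 annotation term. Of all tested genes 25.0% were higher and 12.7% lower, and without sh-circRIMS1 replicate 2 these shares were 36.8% and 23.9%. The inhibitors and clearance receptors of plasminogen activators had 6 of 10 genes tested, SERPINB2 included, of which 2 were higher, 1 was lower and 3 did not pass, with a median change of 0.34 against 0.06 over all tested genes. Without sh-circRIMS1 replicate 2 the higher count was 4. MRC2, an endocytic collagen receptor that associates with the urokinase receptor, measured 9.92, 11.4 and 10.9 FPKM in NC and 22.0, 31.3 and 22.5 FPKM in sh-circRIMS1. It rose by 1.18 on the log2 scale (limma adjusted p = 0.00126), with replicate 2 the highest, and the clearance receptor LRP1 rose by 0.57, the latter not under quantile normalization (limma adjusted p = 0.0823). SERPINE2, protease nexin 1, an inhibitor of thrombin and urokinase, fell by 0.38, a call lost when any 1 of the NC replicates was left out (limma adjusted p between 0.0513 and 0.0564).

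Among protease-activated receptors and membrane serine proteases, 3 of 11 genes were tested and all 3, F2RL1 included, were higher. Of all tested genes 25.0% were. F2RL1 passed the filter only through its level in sh-circRIMS1, so it could enter this count only by being high there. Without it the count rests on 2 genes, F2R and SPINT2. F2R, protease-activated receptor 1 and the main thrombin receptor, measured 7.33, 7.10 and 6.91 FPKM in NC and 14.3, 17.3 and 14.5 FPKM in sh-circRIMS1, a log2 change of 1.06 (limma adjusted p = 0.000306). SPINT2, a Kunitz-type inhibitor of membrane serine proteases, measured 3.83, 3.44 and 4.71 FPKM in NC and 15.9, 20.1 and 15.6 FPKM in sh-circRIMS1, a log2 change of 1.98 (limma adjusted p = 0.000192). Both receptor genes were thus higher in all knockdown libraries, and the other 8 listed genes were below the filter.

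Of 13 genes listed as natural anticoagulants 6 were tested, of which 2 were higher and 0 lower, and 3 of the 6 were TFPI, TFPI2 and THBD. TFPI2, called higher, encodes an inhibitor of plasmin, trypsin and related proteases, as described above. PROCR, the endothelial protein C receptor that works beside thrombomodulin, was the other gene that rose, from 21.4, 23.0 and 20.9 FPKM in NC to 44.5, 41.8 and 42.9 FPKM in sh-circRIMS1, a log2 change of 0.97 (limma adjusted p = 0.000145). Unlike THBD, PROCR had its lowest knockdown value in replicate 2. Without that library 4 of the 6 were higher, while the share of all tested genes called higher went from 25.0% to 36.8%.

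Genes of the circulating coagulation factors were mostly below the filter, with F12 as the only factor tested. Of 21 genes for coagulation factors and the proteins that modify or export them, 15 were below the filter and 7 of those were listed at 0 in all libraries. Among the 6 tested, 1 was lower, 0 were higher and 5 did not pass (limma; the median was 0.10). The lower one was VKORC1L1, a vitamin K epoxide reductase, at 13.8, 13.3 and 13.5 FPKM in NC and 9.12, 9.50 and 9.95 FPKM in sh-circRIMS1 (log2 change -0.49, limma adjusted p = 0.00126). Without sh-circRIMS1 replicate 2 this list had 2 genes higher and 2 lower, when 36.8% and 23.9% of all tested genes were called so.

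Of 9 genes listed for plasminogen and its binding 5 were tested, of which 2 were lower and 0 higher, with a median change of -0.50. Over all tested genes the median was 0.06, with 12.7% lower and 25.0% higher. Without sh-circRIMS1 replicate 2, 3 of the 5 were lower, when 23.9% of all tested genes were. ANXA2, annexin A2, measured 347, 342 and 347 FPKM in NC and 253, 227 and 251 FPKM in sh-circRIMS1, a fall by 0.50 on the log2 scale (limma adjusted p = 0.00101). ENO1, a glycolytic enzyme that also binds plasminogen on cell surfaces, fell by 0.59 (limma adjusted p = 0.0253), a call lost when any 1 of the NC replicates was left out (limma adjusted p between 0.0792 and 0.0818). The direction of these 2 genes was thus opposite to that of PLAU and PLAUR. The list was not uniform, since PLGRKT went up by 0.55 without passing (limma adjusted p = 0.0918). S100A10 and KRT8 did not pass either, at -0.31 and -0.73. With the replicate number as a block 1 gene of the list was called higher.

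Among 9 tested partners of the urokinase receptor, of 11 listed, 3 were higher, 2 lower and 4 did not pass, with a median of -0.04. The integrin subunit genes ITGB3 and ITGA5, parts of receptors for vitronectin and fibronectin, rose by 0.89 and 1.12 on the log2 scale (limma adjusted p = 0.000299 and 0.000686). The subunit gene ITGB1 fell by 0.26 (limma adjusted p = 0.0123). ITGAV, ITGB5 and ITGA3 did not pass, with changes of -0.18, -0.04 and 0.24. CAV1, caveolin 1 of membrane invaginations, measured 290, 297 and 295 FPKM in NC and 141, 96.9 and 144 FPKM in sh-circRIMS1, a fall by 1.23 (limma adjusted p = 0.00139). Leaving out sh-circRIMS1 replicate 2 raised the lower count to 4, and leaving out any 1 of the NC replicates reduced it to 1. Over all tested genes the lower share was 12.7%, and 23.9% without sh-circRIMS1 replicate 2.

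The annotation term for complement and coagulation cascades covered 78 rows of the table used here, 7 of them among the 9 genes. Of its 21 tested genes 12 were higher and 2 lower, with a median of 0.58, when 25.0% and 12.7% of all tested genes were higher and lower. Without the 7, 9 of 14 were higher and 2 lower. Like F2RL1, the complement genes CFB and C1S, both counted as higher, passed the filter only through their level in sh-circRIMS1. Leaving out the 9 genes, those of smallest p were CFB, C3, PROCR and F2R, the first pair of the complement cascade. CFB measured 0.559, 0.565 and 0.483 FPKM in NC and 7.02, 6.05 and 7.43 FPKM in sh-circRIMS1, and C3 measured 1.69, 1.78 and 1.75 FPKM in NC and 12.02, 15.7 and 11.5 FPKM in sh-circRIMS1. The count for this term therefore joins complement genes to those of coagulation.

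**Figure D5:**
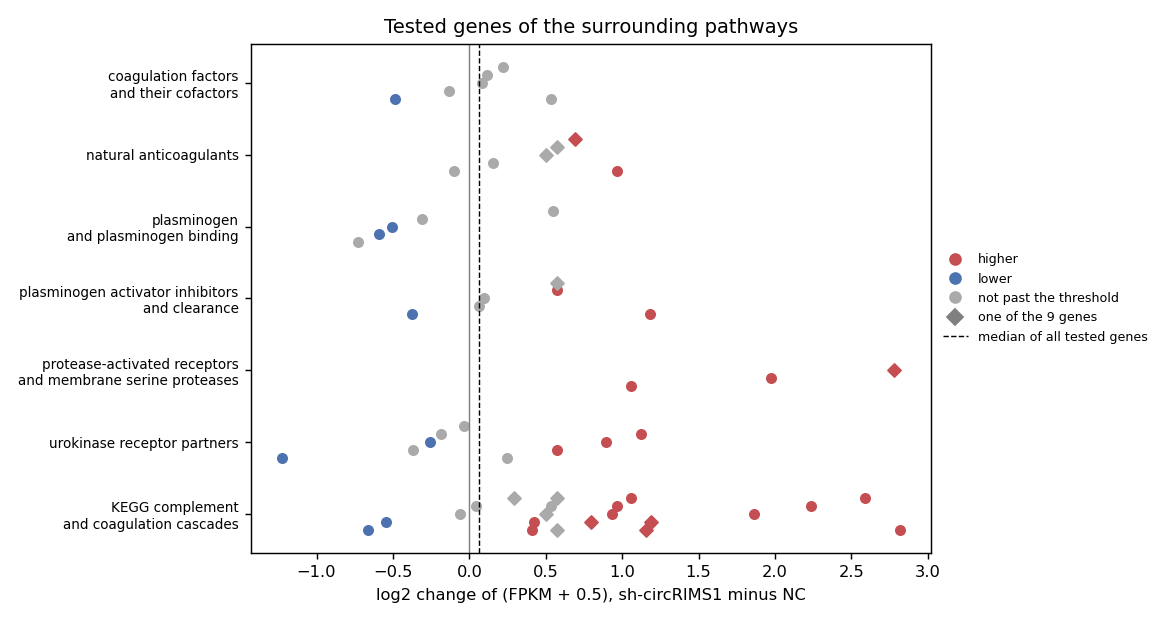
Log2 change of each tested gene in the 7 gene groups, coloured red for higher, blue for lower and grey for not past the threshold, with diamonds for the 9 genes and the dashed line at 0.06 for the median of all tested genes. Genes listed as natural anticoagulants, protease-activated receptors and complement genes lie mostly to the right, and plasminogen-binding genes mostly to the left. Urokinase receptor partners lie on both sides. Among plasminogen activator inhibitors and clearance receptors the genes called higher are the receptors LRP1 and MRC2. The inhibitor SERPINE2 is lower there, and SERPINB2 and SERPINB6 are not past the threshold.

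The genes most like the members over the 6 libraries were found by the Euclidean distance between log2 values taken from each gene's NC mean. Nearest to F3 were EFEMP2, TMEM132A and PODXL, at distances of 0.09, 0.11 and 0.11. Nearest to PLAU were MVP, NT5E and DDR1, at 0.08, 0.08 and 0.09, and nearest to PLAUR were ERAP2, COL4A1 and PRSS23, at 0.06, 0.10 and 0.14. TFPI2 had ERAP1, NGLY1 and FYCO1 at 0.06, 0.08 and 0.09. F2RL1 had CTSS, C3 and DHX58 at 0.35, 0.40 and 0.61, so no gene followed it as closely as the others were followed. With 6 libraries in 2 groups such likeness is a description.

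THBD, PLAT and TFPI are best known from endothelium, so markers of other cell types were read in the same libraries. Of 8 endothelial markers only CDH5 was above the filter, with a summed level of 15.4 to 16.8 FPKM in NC and 13.9 to 16.8 FPKM in sh-circRIMS1. TEK and CLDN5 were listed at 0 in every library. In sh-circRIMS1 replicate 2, where THBD, PLAT and TFPI were highest, CDH5 measured 16.0 FPKM against 12.6 and 12.4 FPKM in replicates 1 and 3, while the NC libraries had 14.6 to 16.1 FPKM. VWF differed little, at 0.225 FPKM in replicate 2 and 0.213 and 0.195 FPKM in replicates 1 and 3. PECAM1 and ERG were lower in replicate 2. PECAM1 measured 0.235 against 0.745 and 0.710 FPKM, and ERG 0.309 against 0.526 and 0.543 FPKM. KDR and EMCN reached at most 0.0132 and 0.00422 FPKM. The part of these markers in the results was not tested. The 8 leukocyte markers summed to at most 1.06 FPKM in NC and 1.39 FPKM in sh-circRIMS1, with CD163 and CD3E at 0, and the 6 platelet markers to at most 0.368 and 0.557 FPKM, with PPBP and GP9 at 0. The 6 fibroblast markers summed to 0.178 to 0.235 FPKM in NC and 0.723 to 0.985 FPKM in sh-circRIMS1, mostly COL1A1, with DCN at 0. The 6 hepatocyte markers summed to 0.088 to 0.134 FPKM and 0.589 to 0.942 FPKM, mostly SERPINA1, with APOB and TTR at 0. Of 12 urothelial and epithelial markers, KRT5, KRT7, KRT8 and KRT18 were above the filter, UPK1B, UPK3A and KRT20 were listed at 0, and the list summed to 1241 to 1285 FPKM in NC and 704 to 956 FPKM in sh-circRIMS1. The labelled bladder carcinoma line thus showed keratins, while the uroplakins of differentiated urothelium reached at most 0.353 FPKM. KRT7 and KRT18 were called lower in sh-circRIMS1 (limma adjusted p = 0.00159 and 0.00742), and KRT8 and KRT5 did not pass. EPCAM and GATA3, below the filter, were higher in every knockdown library than in any NC library, as were 35.5% of tested genes. GATA3 was near 0, at a mean of 0.0239 FPKM in NC and 0.0824 FPKM in sh-circRIMS1. FOXA1, UPK1A and UPK2, also below the filter, overlapped between the groups. All these keratins were lowest in replicate 2. KRT8 measured 111 FPKM there against 243 and 241 FPKM in replicates 1 and 3, KRT7 269 against 312 and 312, and KRT18 320 against 397 and 398 FPKM. The part of these keratins in the results was not tested.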

How the data were processed

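Total RNA of T24 cells was sequenced after ribosomal RNA depletion, and per the labels' protocols linear RNA was also digested with RNase R, although messenger RNAs were abundant in the values. The authors deposited 1 table of FPKM with 6 columns. The tools named in the submitters' processing notes are HISAT2, StringTie, Cufflinks, HTSeq, Trimmomatic and DESeq, and their versions and roles, and the genome build, are not stated in the sources used here. Knockdown columns carry an si prefix and were matched to the sh titles by name and number.

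The 10408 genes whose mean reached 1 FPKM were compared on log2(FPKM + 0.5) by limma 3.58.1 (R 4.3.3). The model held the group alone, the variance prior followed intensity, and two-sided p-values were adjusted by Benjamini-Hochberg. The test was also run on simulated data. The p-values reflect only the spread among these libraries, which may be technical. The 9 genes and all lists were chosen with earlier results of these data known. Named were all 9 genes and, per list, up to 4 called genes with the smallest p. Other genes named, such as C10orf55, RIMS1, further list genes and single markers, were chosen after their values were seen. 1 gene of these lists is not reported here. No block was used, since the labels do not say that equal numbers mark a shared culture or day. Same-numbered libraries also did not deviate together (r of -0.03, -0.00 and -0.04). Promoter windows and overlaps came from RefSeq, GRCh38.p14.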

Additional observations from a re-analysis of the deposited data

How the results depend on the processing

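The calls of F3, TFPI2, PLAU and PLAUR held, in the same direction, under each of the 16 alternatives, and that of F2RL1 under each of the 15 in which it was tested; at a mean FPKM of at least 5 it could not be tested. Their log2 changes ran from 1.08 to 1.28 for F3, 0.62 to 0.75 for TFPI2, 0.73 to 0.85 for PLAU, 1.08 to 1.27 for PLAUR and 2.40 to 3.22 for F2RL1. With array weights 8 of the 9 genes were higher, and leaving out 1 replicate gave 5 to 8 higher and 0 to 1 lower. PLAT turned to -0.13 with array weights and to -0.16 without sh-circRIMS1 replicate 2, and with 1 replicate left out it ran from -0.16 to 0.52. Over all genes 1469 were higher at a mean FPKM of at least 5, 1588 higher and 2085 lower under quantile normalization, and 3983 higher and 2424 lower with array weights. Leaving out 1 replicate gave 1630 to 3803 higher, and 685 to 2474 lower. Quantile normalization moved the median of all tested genes from 0.06 to -0.05. With the replicate number as a block 6 of the 9 genes were higher, TFPI included (limma adjusted p = 0.0493), and 2142 genes were higher and 996 lower over all; the labels do not say that the numbers pair the samples. TFPI was also called without sh-circRIMS1 replicate 1 (limma adjusted p = 0.0306). The log2 ratios kept their sign under each alternative tried. Absolute depth is unknown, so no counting error could be given for low genes such as F2RL1 in NC.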

Other observations

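Further ratios were read after the values were seen and were not tested. F3 stood at 1.08, 0.965 and 0.991 times TFPI2 in NC and at 1.36, 1.57 and 1.37 times in sh-circRIMS1. PLAU stood at 1.28, 1.23 and 1.27 times SERPINB2 in NC and at 2.01, 0.809 and 1.97 times in sh-circRIMS1, so that in replicate 2 the inhibitor transcript was above that of urokinase, the reverse of the other 5 libraries.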
